A study of Danio rerio with 20 samples.

Results

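Translation initiation and elongation factor genes were taken as the listed genes whose symbol begins with eif or eef followed by a digit, which gave 51 genes of the 9368 listed. A filter on low values (a mean above 2.75 CPM over all pools, CPM being the gene's reads scaled to a common library total) passed 49 of them and 6933 genes in all. The remaining 2, eef1a2 with 5 reads and eef2a.2 with 4 reads over all pools, were too low to test. All 51 symbols are gene names in the RefSeq annotation of the zebrafish.

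Protein synthesis begins when initiation factors (eIF) bring the small ribosomal subunit, the initiator tRNA and an mRNA together at a start codon. eIF2 carries the initiator tRNA and is recharged with GTP by eIF2B, eIF3 holds the complex together, and the cap-binding complex eIF4F recruits the mRNA. Elongation factors (eEF) then drive each round of peptide growth: eEF1A delivers the charged tRNA, eEF1B recharges eEF1A with GTP, and eEF2 moves the ribosome along. Several of these proteins are among the most abundant in growing tissue, and many of their mRNAs, like those of ribosomal proteins, carry a 5′ terminal pyrimidine tract through which the mTOR pathway sets how strongly they are translated.

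Embryos of the wild-type AB strain of zebrafish (Danio rerio) were kept in embryo water, alone or with 0.5, 1, 2 or 10 mg/L HFPO-DA, from the sphere stage until 72 h post fertilisation (hpf), when the mouth protrudes. HFPO-DA, also called GenX, is a fluorinated ether acid that replaced the longer perfluorooctanoic acid in manufacturing, and its solutions were brought to a neutral pH. Whole embryos were pooled before RNA extraction, 8 to 10 per pool. The pools analysed were 3 control pools (a, b and c) and 4 pools (a to d) at each concentration. A further control pool, d, which the labels call an outlier, was not analysed. Nothing in the labels says whether pools of 1 group came from separate clutches, so p-values measure the spread between these pools. The library of a pool held 104350 to 581494 reads on genes after copies of 1 molecule had been collapsed, with medians from 167419 at 1 mg/L to 345832 in controls. Marker genes were chosen for 11 tissues (muscle, heart, red cells, liver, pancreas, neurons, photoreceptors, lens, skin, yolk layer and leukocytes). Of these, 34 were among the listed genes, and some were not, among them 2 of 4 neuron markers. All 34 were read in at least 1 pool. In 10 tissues, pancreas being the exception, at least 1 listed marker was read in every pool. In whole-embryo RNA, fewer cells of a type and less RNA per cell cannot be told apart.

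For one member, eef1a1l1, the study lists a qRT-PCR primer pair under the older name ef1a. Its primer pair is shown because the same transcript heads the list of members by reads. RefSeq places the gene on chromosome 19 of GRCz12tu, a build other than the one the reads were mapped to. The pair reads, 5′ to 3′ and in lower case throughout:
ef1a forward: ctaccctcctcttggtcgct
ef1a reverse: ggaacggtgtgattgagggaa

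The 51 genes together held 2.18% to 2.66% of the reads of a pool. The lowest share was that of 1 mg/L pool a (2994 of 137539 reads, with an exact 95% binomial interval that reached 0.0765 points below and 0.0785 above) and the highest that of 1 mg/L pool d (15481 of 581494 reads, 0.0412 points below and 0.0417 above), and such intervals cover counting error only. The mean was 2.41% ± 0.10 in controls (SD, n = 3). With rising concentration the exposed groups averaged 2.38% ± 0.10, 2.42% ± 0.20, 2.41% ± 0.14 and 2.46% ± 0.09 (SD, n = 4 each). These means lay closer together than the pools of any single group. The values analysed below are the deposited TMM-normalized values, in which 1 read was worth 0.46 in the deepest pool and 2.42 in the shallowest. Reads came from the poly(A) end of mRNAs, with copies of 1 molecule collapsed, and were not divided by gene length. A level here is a normalized number of collapsed reads, and how fully each mRNA was captured was not measured.

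**Figure D1:**
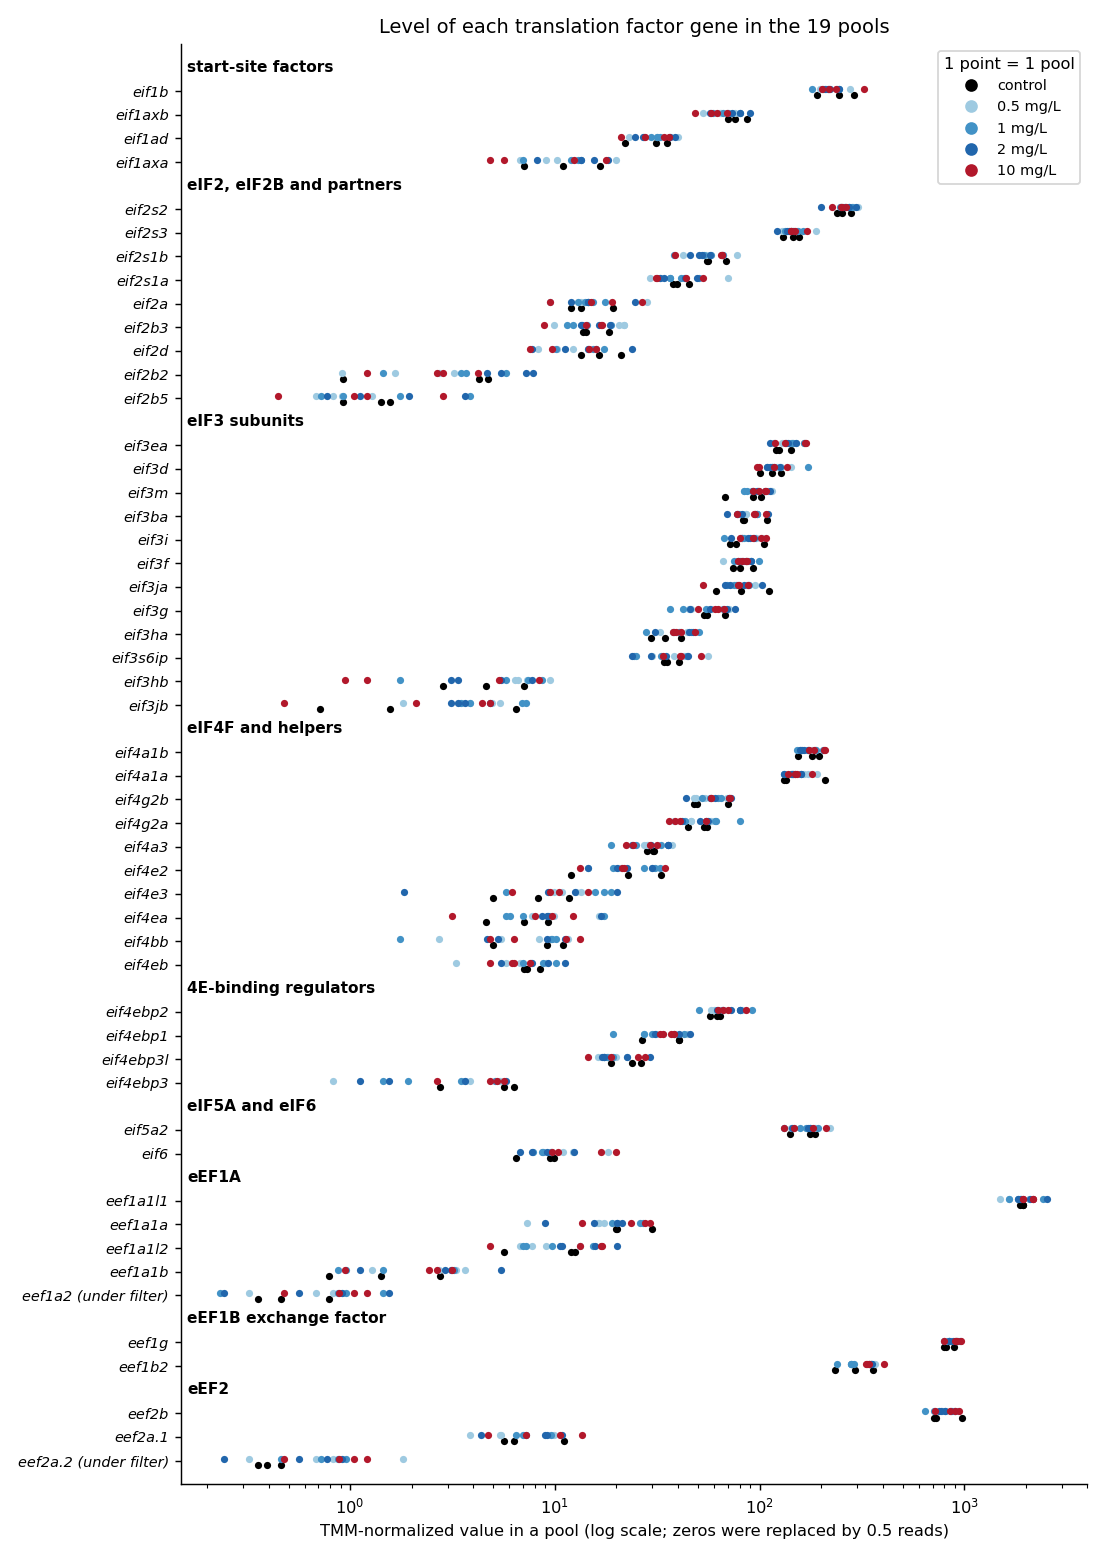
TMM-normalized values (horizontal, log scale) of the 51 genes in 19 pools, 1 point per pool, with the genes grouped by role and ordered by mean. The means ran from 1973 for eef1a1l1 to 0.74 for eef2a.2, and in every row the control pools (black) overlap the exposed pools.

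Reads were concentrated in few genes. The highest 4, eef1a1l1, eef1g, eef2b and eef1b2, all elongation factors, held 60.8% of the members' reads. The mean value of the highest member was 1346 times that of the lowest tested member, eif2b5. That gene had 23 reads in all and none in 7 pools, where a replaced zero stands at 0.5 of a read, so the ratio is approximate. By role, assigned from the gene symbol, eEF1A held 31.1% of the members' reads, the eEF1B exchange factor 17.8% and eEF2 12.6%. Among genes with an eif symbol, eIF3 subunits held 12.7%, eIF2 with eIF2B and their partners 8.26%, eIF4F and its helpers 7.93%, the start-site factors 5.18%, eIF5A with eIF6 2.60% and the 4E-binding regulators 1.97%. The share of eIF4F and its helpers takes in every eif4 gene other than the 4E-binding ones, eif4a3 and eif4e2 among them.

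Of the eEF1A genes, which deliver aminoacyl-tRNA to the ribosome, eef1a1l1 was read 39034 times and held 98.4% of all eEF1A reads. Its value was 1934, 1873 and 1944 in control pools a to c, 2066, 1490, 1650 and 2175 in 0.5 mg/L pools, 1648, 1842, 1867 and 2423 in 1 mg/L pools, 1826, 2098, 1891 and 2546 in 2 mg/L pools, and 2170, 2172, 1930 and 1937 in 10 mg/L pools. Controls sat in the middle of the exposed pools, of which 7 lay above and 6 below all controls. As a share of all reads, it ran from 0.569% in 0.5 mg/L pool b (exact 95% interval 0.531% to 0.609%) to 0.912% in 2 mg/L pool d (0.887% to 0.936%). With exposed pools set against control, its log2 fold change was 0.04 (95% interval -0.19 to 0.26, limma adjusted p = 0.991). The direction of so small a value turned when values were rescaled to a common sum or quantile normalized.

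The other eEF1A genes were minor. eef1a1a held 0.955% of the family's reads, eef1a1l2 0.529%, eef1a1b 0.106% and eef1a2 0.0126%. eef1a1a had values of 19.9, 20.2 and 29.9 in controls, 16.5, 7.28, 16.3 and 17.3 in 0.5 mg/L pools, 26.9, 26.2, 20.2 and 18.9 in 1 mg/L pools, 8.97, 20.1, 15.5 and 21.2 in 2 mg/L pools, and 27.5, 23.7, 13.6 and 29.0 in 10 mg/L pools. All pools at 0.5 mg/L were below all controls, on 10, 4, 12 and 27 reads. The log2 fold change was -0.73 ± 0.32 (SE) at 0.5 mg/L (adjusted p = 0.793 by limma, and the only member with an unadjusted p under 0.05 in a comparison with control) and -0.54 ± 0.30 at 2 mg/L (adjusted p = 0.912), against -0.01 ± 0.27 and -0.02 ± 0.28 in the other exposures. Without 0.5 mg/L pool b, the lowest of all pools, the first value was -0.44. The eEF1A genes encode near-identical proteins, and the counting left out reads that map to more than 1 place, so the split of reads between these paralogs is uncertain.

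Both members of the eEF1B exchange factor, eef1g (the gamma subunit) and eef1b2 (the catalytic beta subunit that reloads eEF1A with GTP), were abundant. eef1g stood at 892, 794 and 815 in controls, 910, 828, 857 and 937 in 0.5 mg/L pools, 794, 909, 845 and 838 in 1 mg/L pools, 909, 845, 955 and 886 in 2 mg/L pools, and 897, 963, 920 and 796 in 10 mg/L pools. It had the lowest coefficient of variation of all members, 6.23% over the 19 pools, and no exposed pool lay below all controls while 8 lay above them. Its log2 fold change in exposed against control was 0.08 (95% interval -0.13 to 0.28, adjusted p = 0.980 by limma), which quantile normalization turned to -0.05.

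eef1b2 had values of 359, 234 and 294 in controls, 367, 280, 364 and 341 in 0.5 mg/L pools, 238, 279, 281 and 288 in 1 mg/L pools, 344, 356, 351 and 352 in 2 mg/L pools, and 344, 408, 331 and 336 in 10 mg/L pools. Every pool at 1 mg/L was lower than every pool at 2 and 10 mg/L, while the control pools spanned most of this range. How many of all genes split between exposures in this way was not counted. The moderated F test of limma among the 4 exposures gave an adjusted p of 0.964 (unadjusted p under 0.05), with group means of 338 ± 40.1, 272 ± 22.7, 351 ± 4.83 and 355 ± 35.7 (SD, n = 4 each) from the lowest to the highest concentration. Against control (296 ± 62.6, n = 3) the log2 fold changes were 0.20 ± 0.16 (SE), -0.11 ± 0.17, 0.27 ± 0.16 and 0.28 ± 0.16 in the same order, with an adjusted p of 0.967 at 10 mg/L by limma. Leaving out control pool b, the lowest of all pools, moved the value at 10 mg/L to 0.12.

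eEF2, the translocase, was read almost entirely from eef2b, with 99.1% of the family's 16030 reads. Its value was 974, 715 and 729 in controls, 874, 779, 931 and 889 in 0.5 mg/L pools, 647, 714, 809 and 897 in 1 mg/L pools, 809, 772, 756 and 858 in 2 mg/L pools, and 854, 944, 902 and 723 in 10 mg/L pools. No exposed pool was above control pool a, and 2 were below all controls. The log2 fold change in exposed against control was 0.04 (95% interval -0.19 to 0.26, adjusted p = 0.991 by limma). eef2a.1, with 137 reads, had values between 3.85 and 13.6 and a log2 fold change of 0.00 (95% interval -0.76 to 0.76). eef2a.2 was read at most once in a pool.

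**Figure D2:**
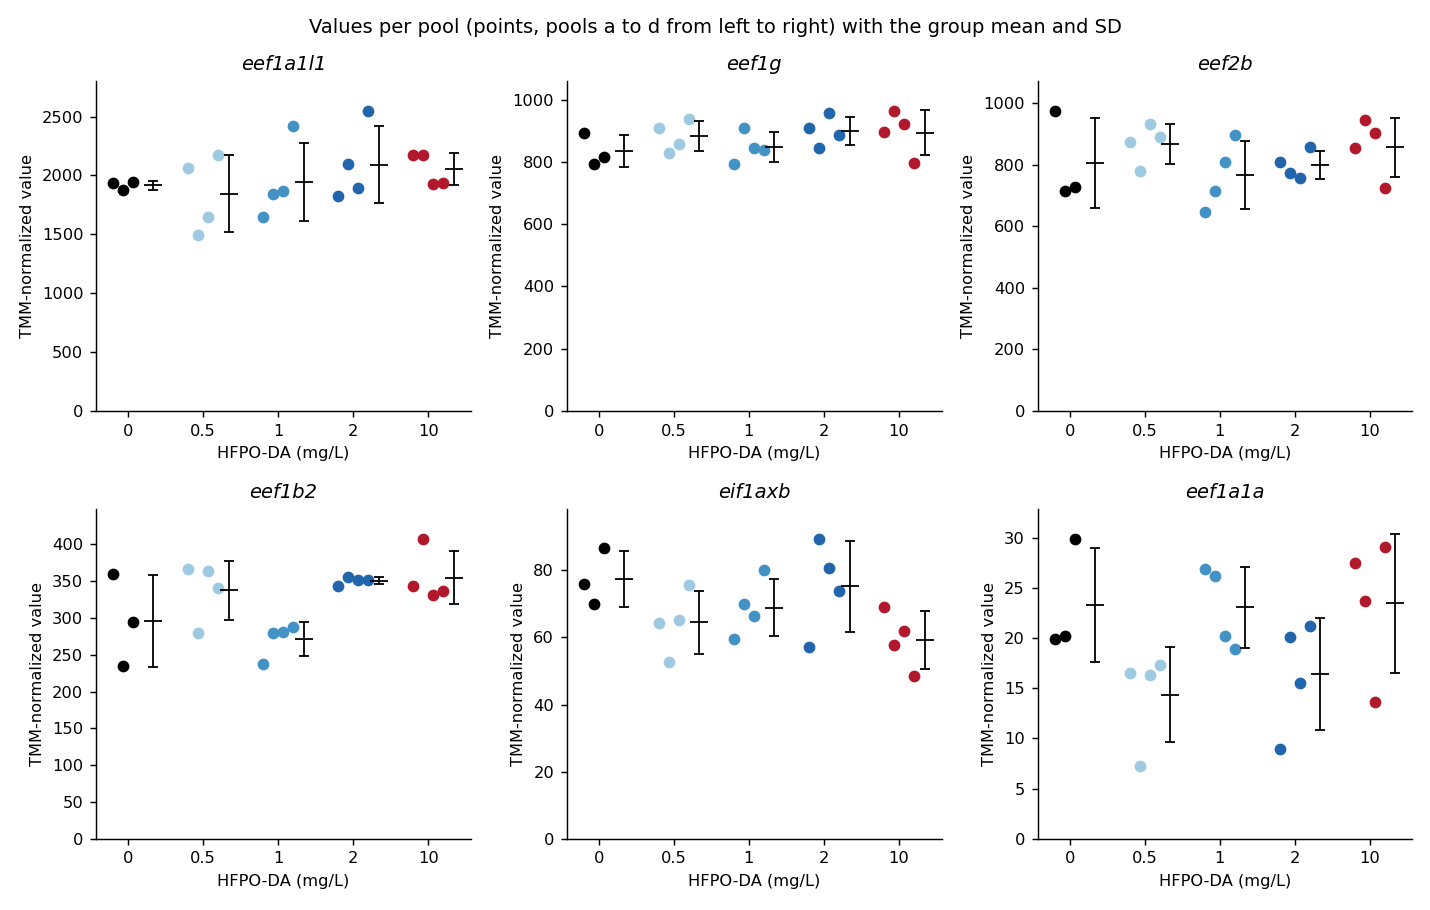
TMM-normalized values per pool (vertical, from 0) against HFPO-DA concentration for 6 genes, with points for pools a to d from left to right and a bar for the group mean and SD. The 4 pools of 0.5 mg/L lie below the controls in eef1a1a, the 4 pools of 10 mg/L lie below them in eif1axb, and in the other panels no exposed group lies wholly above or below the controls.

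Start-site factors scan for and fix the start codon. eif1b, which encodes a form of eIF1, the keeper of start-codon accuracy, was the most read of them, with 290, 191 and 245 in controls and values between 180 and 323 under exposure. The log2 fold change was -0.08 (95% interval -0.35 to 0.19). eif1axb held 86.2% of the reads of the eIF1A pair, whose protein helps the small subunit scan, and eif1axa the rest. eif1axb had values of 75.9, 69.8 and 86.5 in controls, 64.4, 52.8, 65.1 and 75.7 in 0.5 mg/L pools, 59.5, 69.8, 66.3 and 79.9 in 1 mg/L pools, 57.2, 89.4, 80.5 and 73.8 in 2 mg/L pools, and 69.1, 57.7, 61.9 and 48.4 in 10 mg/L pools. All pools at 10 mg/L were below all controls, and 11 of 16 exposed pools were. In 1 mg/L pool b (69.825) and 10 mg/L pool a (69.135) the gap to control pool b (69.838) was less than the worth of 1 read. The log2 fold change was -0.39 ± 0.19 (SE) at 10 mg/L (adjusted p = 0.967 by limma) and -0.22 ± 0.16 in exposed against control (adjusted p = 0.980). eif1ad, named for its eIF1A domain, had a mean of 30.9 and a log2 fold change of 0.08.

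Among the 3 subunits of eIF2, eif2s2 (beta) had a mean value of 261 and eif2s3 (gamma) one of 147. The alpha subunit, whose phosphorylation halts initiation under stress, was read from a pair of genes, eif2s1b (mean 56.7, 58.4% of the pair's reads) and eif2s1a (mean 41.1, 41.6%). eif2s2 was at 254, 279 and 240 in controls and between 199 and 302 in exposed pools, with a log2 fold change of 0.02 (95% interval -0.22 to 0.26). The values for eif2s3, eif2s1b and eif2s1a were 0.03, -0.11 and -0.02, with 95% intervals that all included 0.

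The 3 listed subunits of eIF2B, the exchange factor of eIF2, were far lower than eIF2 itself. Means were 15.6 for eif2b3, 3.62 for eif2b2 and 1.47 for eif2b5, which had 23 reads in all and none in 7 pools. eif2b2 was at 7.85, 5.47, 4.65 and 7.23 in the pools at 2 mg/L, 4.25, 0.919 and 4.72 in controls, and between 0.910 and 5.76 in the remaining exposed pools. It had no read in 2 pools, 0.5 mg/L pool b (0.910) and 10 mg/L pool d, whose values are replaced zeros. The F test among exposures gave an adjusted p of 0.964 by limma (unadjusted p under 0.05) on 73 reads in all, and the log2 fold change at 2 mg/L was 1.03 ± 0.54 (SE, adjusted p = 0.912). Without control pool b, which had 1 read, it fell to 0.42. eif2d, which encodes a factor that can deliver initiator tRNA without eIF2, had a log2 fold change of -0.57 ± 0.34 at 0.5 mg/L (adjusted p = 0.834) and -0.41 in exposed against control, with 8 of 16 exposed pools below all controls. eif2a, whose product is not an eIF2 subunit despite the name, stood at 0.10 (95% interval -0.48 to 0.67).

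eIF3, the scaffold of the initiation complex, was listed with 12 genes, all tested. Means ran from 141 for eif3ea and 120 for eif3d down to 5.44 for eif3hb and 3.84 for eif3jb, and of the duplicated subunits eif3ha held 87.8% and eif3ja 95.3% of their pair's reads. In exposed against control 8 of the 12 had a log2 fold change above 0, as did 57.1% of all tested members and 43.2% of all genes. Their median was 0.07, and none had an unadjusted p under 0.05. The split over all members varied with the scaling. eif3m had values of 101, 68.0 and 92.8 in controls, 116, 83.7, 110 and 113 in 0.5 mg/L pools, 92.1, 87.3, 83.6 and 106 in 1 mg/L pools, 93.0, 96.7, 113 and 97.9 in 2 mg/L pools, and 108, 106, 93.3 and 99.2 in 10 mg/L pools. No exposed pool was below control pool b and 7 were above all controls. Its p was the smallest of any member in exposed against control (log2 fold change 0.20 ± 0.14, SE, adjusted p = 0.980 by limma), and without control pool b the value was 0.03. eif3ha stood at 0.20 (95% interval -0.18 to 0.58). The largest value of any member was 0.67 for eif3jb, with a 95% interval of -0.32 to 1.65 on 74 reads, and at 1 mg/L it was 1.12 ± 0.59 (adjusted p = 0.998). Leaving out control pool a moved these values to 0.12 and 0.57, and leaving out control pool b to 1.38 and 1.83.

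eIF4F joins the cap-binding protein eIF4E, the helicase eIF4A and the scaffold eIF4G. Reads of the helicase were nearly evenly split between eif4a1b (48.0% of the family's reads) and eif4a1a (43.5%), with 8.44% from eif4a3, which encodes the core of the exon junction complex. eif4a1b had values of 196, 180 and 155 in controls and between 153 and 208 in exposed pools, and eif4a1a 209, 134 and 132 and between 131 and 190. Their log2 fold changes in exposed against control were 0.00 (95% interval -0.25 to 0.25) and -0.02 (-0.29 to 0.25), and that of eif4a3 was -0.05 (-0.47 to 0.36). eif4bb, which encodes a helper of the helicase, was at -0.18 (-1.03 to 0.68) on 154 reads.

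eIF4E was low and shared out among paralogs. eif4e2, whose product binds the cap without joining eIF4G and represses translation, held 46.3% of the family's reads, eif4e3 22.2%, and the 2 genes named for eIF4E itself, eif4ea and eif4eb, 17.0% and 14.5%. The log2 fold changes in exposed against control were 0.10 for eif4e2, 0.40 for eif4e3, 0.40 for eif4ea and -0.11 for eif4eb, with 95% intervals that together ran from -0.84 to 1.18. At 1 mg/L, eif4e3 had values of 5.76, 17.5, 18.7 and 15.7 against 4.96, 8.27 and 11.8 in controls (log2 fold change 0.71 ± 0.41, SE, adjusted p = 0.998 by limma), and eif4e2 stood at 0.36 ± 0.29. Without control pool a these became 0.40 and -0.02, and the value of eif4e3 in exposed against control 0.09. The groups overlapped in all of these genes.

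eif4g2a and eif4g2b encode the eIF4G-like protein that supports initiation independent of the cap, and they had means of 50.6 and 59.6. eif4g2b held 47.3% to 55.9% of the pair's reads in controls and 56.3% to 66.7% at 10 mg/L, so the shares did not touch. Over 10 families with more than 1 gene, such shares were compared for 29 genes at 4 concentrations. In 5 of these 116 comparisons (4.31%) exposed and control pools did not overlap, and the others were eef1a1a at 0.5 and 2 mg/L, eif4g2a at 10 mg/L (the counterpart of eif4g2b), and eif4ebp3l at 0.5 mg/L. In a pair the shares of both genes mirror each other, so the same shift is counted for each gene. Such shares were not computed for families outside the members, and no test was made of them, so the count is a description only.

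The 4E-binding proteins block eIF4E until mTOR phosphorylates them. eif4ebp2 held 53.9% of their reads, eif4ebp1 27.4%, eif4ebp3l 15.6% and eif4ebp3 3.10%. eif4ebp2 had values of 61.7, 64.3 and 57.4 in controls, 82.6, 58.2, 59.7 and 80.1 in 0.5 mg/L pools, 65.2, 66.3, 50.5 and 92.0 in 1 mg/L pools, 80.7, 80.3, 61.9 and 72.8 in 2 mg/L pools, and 86.0, 70.0, 66.0 and 62.9 in 10 mg/L pools. Of the exposed pools, 11 lay above all controls and 1 below, with a log2 fold change of 0.20 (95% interval -0.13 to 0.52, adjusted p = 0.980 by limma). The values of eif4ebp1, eif4ebp3l and eif4ebp3 were -0.06, -0.21 and -0.52, with intervals that all included 0.

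eif5a2, the gene of the hypusine-bearing factor that helps stalled ribosomes past difficult peptide bonds, had values of 176, 186 and 142 in controls and between 131 and 222 in exposed pools, with a log2 fold change of 0.00 (95% interval -0.29 to 0.28). eif6, whose product keeps the large subunit from joining too early, was at 16.8, 10.4, 19.9 and 9.67 in 10 mg/L pools against 9.93, 6.43 and 9.44 in controls (log2 fold change 0.65 ± 0.36, SE, adjusted p = 0.967 by limma). Its pool 10 mg/L d fell below the highest control, and its 195 reads gave an interval of -0.32 to 0.95 in exposed against control.

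Of the 49 tested genes, no member was called in any comparison at a Benjamini-Hochberg adjusted p under 0.1 by limma, and none by edgeR or DESeq2 on recovered reads. Among all 6933 genes, limma called 0.0144% (1 gene) at each of the higher concentrations, 2 and 10 mg/L, and 0% in the other 4 comparisons. With rising concentration, then in exposed against control and among exposures, edgeR called 0, 0, 2, 1, 5 and 3 of all genes. DESeq2 called 0, 0, 0, 1, 0 and 0. With so few calls over all genes, the 0 among members does not set them apart. At an unadjusted p under 0.05 limma gave 1 member at 0.5 mg/L, eef1a1a (2.04% of members, against 6.2% of all genes). It gave 0 in the remaining exposures, where 3.97%, 4.85% and 4.21% of all genes passed with rising concentration, and 0 in the exposed pools combined (4.76%). The test among exposures gave 3 (6.12%, against 4.47% of all genes), which were eef1b2, eef1a1a and eif2b2. The corresponding members by edgeR numbered 1, 1, 0, 1, 0 and 2, beside 357, 277, 324, 307, 388 and 230 of all 6933 genes. By DESeq2 they numbered 0, 0, 0, 0, 0 and 1, beside only 128, 61, 101, 65, 174 and 73 of all genes. These comparisons share the 3 control pools, apart from the one among exposures.

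**Figure D3:**
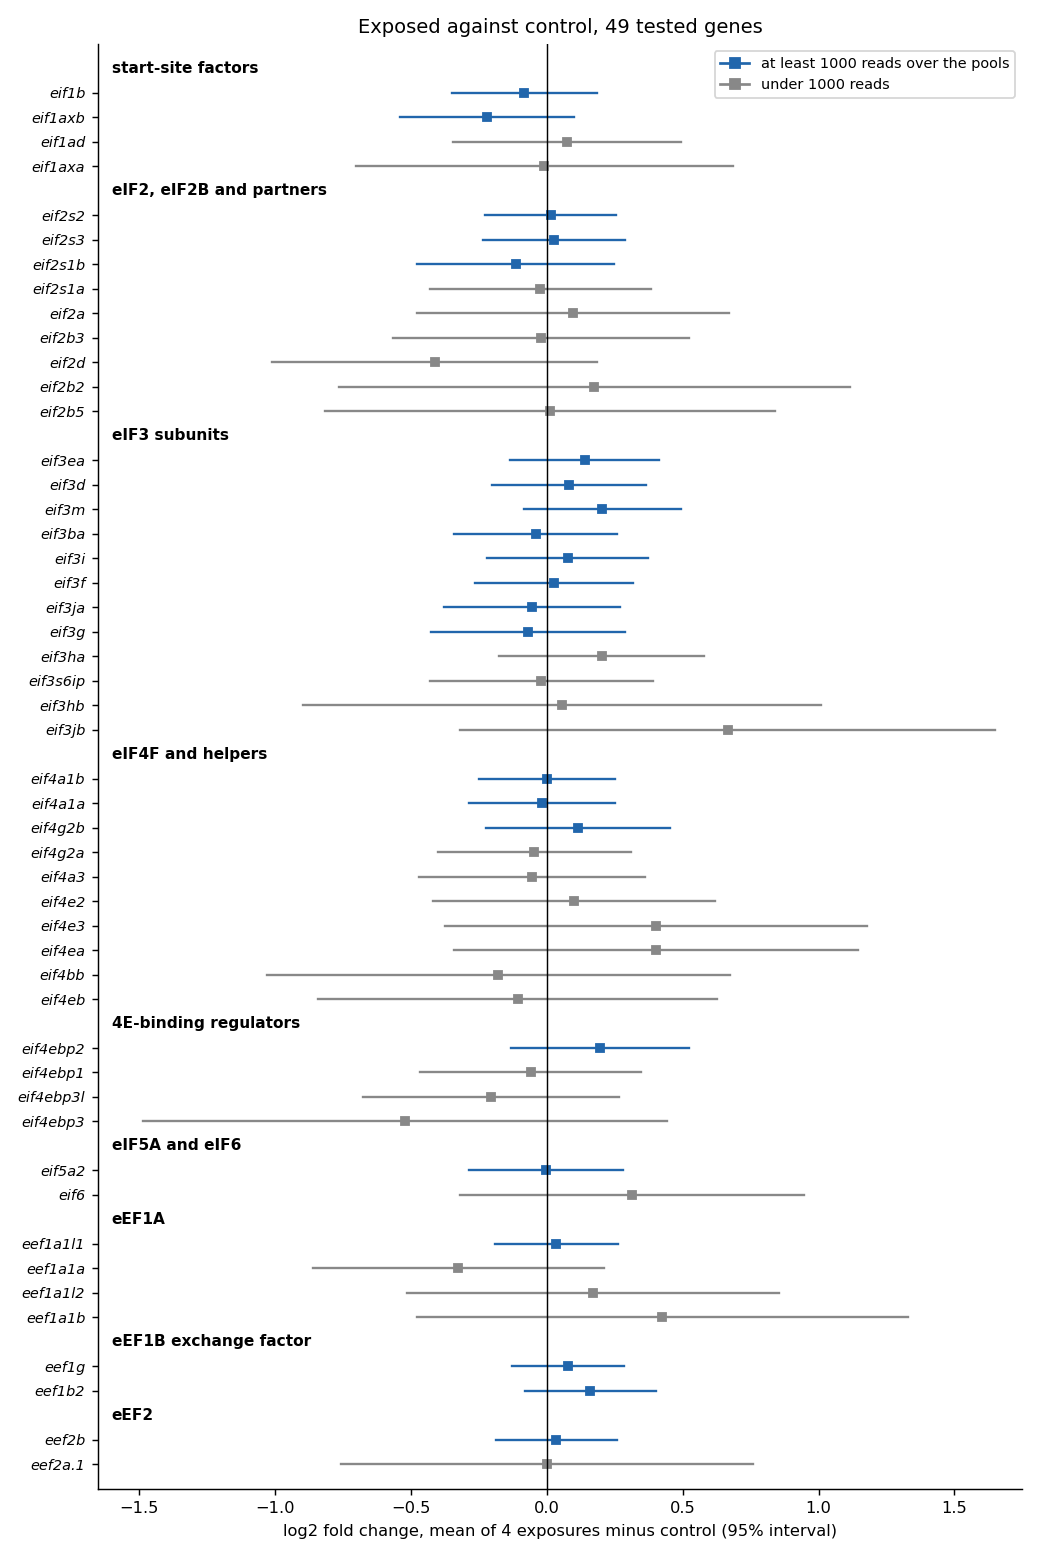
Log2 fold change of the 49 tested genes (mean of 4 exposures minus control, squares) with 95% intervals from limma, grouped by role, blue for genes with at least 1000 reads over the pools and grey for the others. All intervals include 0, and those of the 22 blue genes lie between -0.54 and 0.52.

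Groups that did not overlap were few. Of the members, 1 had all 0.5 mg/L pools below all controls (eef1a1a, 4.14% of all genes) and 1 all 10 mg/L pools below (eif1axb, 3.4% of all genes). The other single exposures had none below (2.71% of all genes in the 1 mg/L comparison, 3.46% in the one at 2 mg/L). No member had all pools of an exposure above all controls, which 2.35%, 2.45%, 2.05% and 2.37% of all genes had with rising concentration. None had all 16 exposed pools above all controls (0.115% of all genes) or below them (0.0865%). Log2 fold changes above 0 were found for 26, 28, 31 and 29 members from the lowest to the highest concentration (53.1%, 57.1%, 63.3% and 59.2%, against 44%, 46.1%, 45.9% and 45.3% of all genes) and for 28 in the exposed pools combined (57.1% against 43.2%). Medians over the members were 0.02, 0.01, 0.04 and 0.02 (log2), against -0.06, -0.04, -0.04 and -0.04 over all genes. The split varied with the scaling. In the exposed pools combined, 20 of 49 members were above 0 once values were rescaled to a common sum (40.8% against 38.6% of all genes). After quantile normalization 31 were (63.3% against 49.1%), and the shares were 67.3% against 46.1% by edgeR and 77.6% against 48.2% by DESeq2.

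For the 22 members with at least 1000 reads, the depth was enough to bound the change. Their 95% intervals in exposed against control lay between -0.54 and 0.52 on the log2 scale, a fold of 0.688 to 1.44, and 20 of them lay within 0.5 of 0. The largest value among them was that of eif1axb (-0.22). Intervals at a single concentration could pass these bounds, as for eif1axb at 10 mg/L (-0.78 to 0.003) and eif3g at 1 mg/L (-0.71 to 0.18). All of them rest on the same 3 control pools. For the 27 members with fewer reads the intervals were mostly wider, up to those of eif3jb (-0.32 to 1.65, 74 reads) and eif4ebp3 (-1.48 to 0.44, 78 reads), although that of eif4g2a (-0.40 to 0.31, 967 reads) was close to that of eif3g (-0.42 to 0.29, 1140 reads).

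Over all 19 pools the better-read members varied little. The median coefficient of variation of the 22 members with at least 1000 reads was 13.6%, or 1.34 times what counting reads alone would give, against 15.6% and 1.60 times for the 704 genes of that depth. For the 27 members with fewer reads it was 33.0% and 1.04 times, against 45.2% and 0.996 times for 6229 genes. eef1a1l1 varied by 13.0% where counting gives 2.47%, eef2b by 11.2% (3.85%) and eef1b2 by 14.4% (6.19%), so in these genes most of the spread was between the pools themselves.

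**Figure D4:**
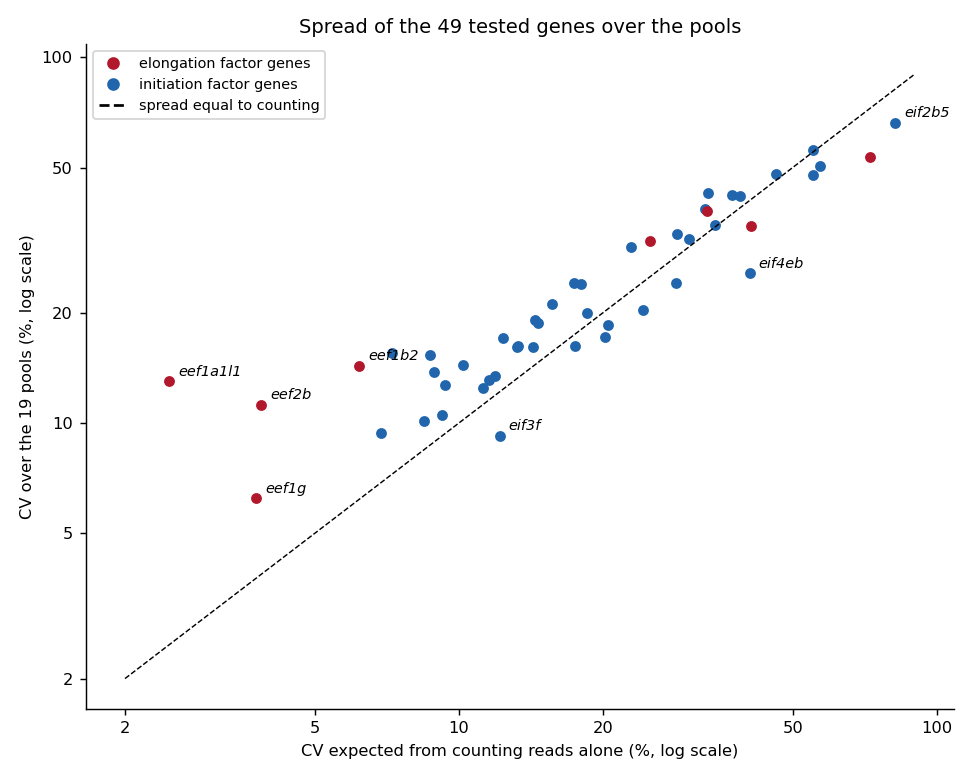
Coefficient of variation over the 19 pools (vertical, log scale) against that expected from counting alone (horizontal, log scale) for the 49 tested genes, red for elongation and blue for initiation factors, with a dashed line where the measures are equal. eef1a1l1 (13.0% against 2.47%) and eef2b (11.2% against 3.85%) lie farthest above the line, and low genes follow it.

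The spread between pools was set beside that of ribosomal protein genes. Across the 19 pools, eef1b2 moved with the mean log2 value of 65 cytoplasmic ribosomal protein genes (r = 0.87, rho = 0.80). Permutation p was 1e-05 for r, the smallest that 100000 permutations can give, and 0.00016 for rho, with adjusted p of 0.00098 and 0.0157 over the 98 relations computed (49 genes, each with this mean and with depth). The correlation was 0.80 within groups and 0.78 without the 2 pools farthest from the median, control b and 1 mg/L a. eef1g (r = 0.70, rho = 0.74, permutation p 0.00064 and 0.00049, adjusted 0.0252 and 0.0240) and eif3m (r = 0.73, rho = 0.70, permutation p 0.00077 and 0.0012, adjusted 0.0252 and 0.0395) did the same, with r of 0.58 and 0.51 without those 2 pools. eef2b followed at r = 0.61 and rho = 0.56 (permutation p 0.0056 and 0.014, adjusted 0.0783 and 0.137), and 0.47 without them. For eef1a1l1 the relation was weak (r = 0.19, rho = 0.28, permutation p 0.44 and 0.24). Over all 641 genes with at least 1000 reads that are not ribosomal protein genes, the median r was 0.04. The 5th percentile was -0.51 and the 95th 0.71. Of the 22 members of that depth, whose median was 0.23, 2 lay above the 95th percentile (eef1b2 and eif3m), while eef1g lay just below it. The permutation tests, here and with depth, take no relation as their reference and mix the groups. Their p therefore do not set these members apart from other genes. The ribosomal mean itself was lowest in control pool b (9.11) and ran to 9.54 in controls, while with rising concentration the exposed groups spanned 9.46 to 9.60, 9.32 to 9.52, 9.51 to 9.65 and 9.42 to 9.65. These relations were looked for with the values known, and all genes of a pool share its library and its scaling.

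eef1a1l1 moved with the depth of the pool (r = 0.68 with log2 reads, rho = 0.65, permutation p 0.0013 and 0.003, adjusted 0.0309 and 0.0596). Over the 704 genes with at least 1000 reads the median r with depth was 0.16 and the 95th percentile 0.60, with 3 of the 22 members above it. The other two were eif3g (r = 0.63, rho = 0.66, permutation p 0.0037 and 0.0028, adjusted 0.0727 and 0.0596) and eif3ba (r = 0.61, rho = 0.62, permutation p 0.0052 and 0.0049, adjusted 0.0783 and 0.0689), and eef2b stood at r = 0.58 and rho = 0.61 (permutation p 0.0091 and 0.0058, adjusted 0.111 and 0.0709). The highest values of eef1a1l1 were those of the deepest pools, 1 mg/L d (2423, 581494 reads) and 2 mg/L d (2546, 579196 reads). Its correlation was 0.76 within groups and 0.68 without the 2 pools farthest from the median depth, 10 mg/L d and 1 mg/L d. Depth differed between the groups, and its part in the values of this gene was not tested.

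**Figure D5:**
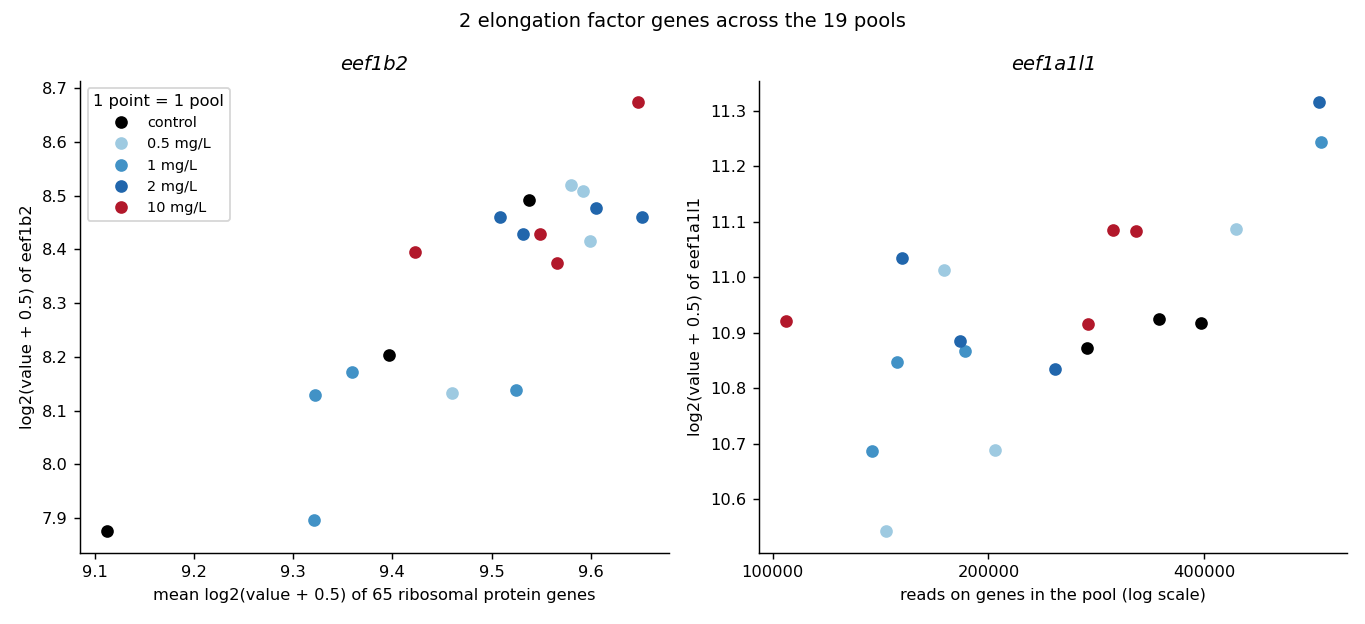
Log2 of the value plus 0.5 of eef1b2 against the mean log2 value of 65 ribosomal protein genes (left) and of eef1a1l1 against reads on genes in the pool (right, log scale), 1 point per pool and coloured by group. The correlations are 0.87 and 0.68 over 19 pools, and the lowest point on the left is control pool b.

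Genes that act beside these factors were described in 4 lists. Of 65 tested cytoplasmic ribosomal protein genes, 0 were called in exposed against control, 15 had an unadjusted p under 0.05 and all 15 were higher (against 2.42% of all genes higher at that p), with a median log2 fold change of 0.16. The count of higher genes rested on the controls, being 0 without control pool b (median 0.04) and 31 without control pool a (median 0.25). It also varied with the method. It was 7 after quantile normalization (median 0.05) and 2 by limma without the mean-variance trend. By edgeR it was 15 (median 0.18), with the replicate block 20 (median 0.17) and by DESeq2 28 (median 0.21). Of 25 tested genes of termination, recycling, poly(A) binding and translational signalling, 11 were above 0 with a median of -0.02, against 43.2% above 0 and a median of -0.05 over all genes, and 1 had an unadjusted p under 0.05 (4.76% of all genes did). This was gnb2l1, which encodes the ribosomal scaffold protein RACK1, with a log2 fold change of 0.32 ± 0.11 (SE, adjusted p = 0.980 by limma). Among the 7 tested mitochondrial translation factors none had a p under 0.05 in that comparison, 1 was above 0 (43.2% of all genes were) and the median was -0.16. Of 24 targets chosen for the eIF2 kinase response, 16 were among the listed genes, and atf4a, ddit3 and sesn2 were not. Such targets rise when eIF2 alpha is phosphorylated. Of the 14 tested, 4 were above 0 with a median of -0.14, beside the same 43.2% and 4.76% over all genes. The 4 were cebpb (0.45), atf5a (0.11), asns (0.09) and psat1 (0.02). The 1 with a p under 0.05, trib3, which encodes a pseudokinase, was lower (log2 fold change -1.12 ± 0.49, adjusted p = 0.980 by limma). atf4b, the only listed gene of the central transcription factor of that response, was at -0.30 ± 0.16 (adjusted p = 0.980 by limma). None of these genes was called in any comparison.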

How the data were processed

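Total RNA of pooled whole embryos was made into oligo-dT-primed libraries with molecular identifiers. Per the labels and methods, the authors trimmed (Trimmomatic 0.40), mapped (STAR, GRCz10, with GRCz11 also listed), collapsed molecules (UMI-tools 1.1.2), counted (HTSeq 0.13.5, which by default leaves out reads mapping to several places) and scaled by TMM. The deposited values are a TMM-normalized signal in which zeros were replaced. Every other value (100%) was a whole multiple of 1 read within 0.001, so reads were recovered, and replaced zeros stood at 0.5 of a read. Of 20 pools, 19 were analysed. 1 control pool, which the labels call an outlier, was not analysed here. Columns of no sample numbered 0.

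The depth was 104350 to 581494 reads per pool. Genes with a mean CPM above 2.75 were tested with limma 3.58.1 (R 4.3.3) on log2(value + 0.5), which understates changes of low genes, with a mean-variance trend, each concentration against control, the mean of the 4 exposures against control, and among exposures. Benjamini-Hochberg adjustment ran over all tested genes, with a call at an adjusted p under 0.1. The study's own test was not run here. With it the paper reported far more differing genes, and ribosomal protein genes were among those it lists as higher in all exposures. The counts of calls given here therefore hold only for the methods named here. Intervals of shares are exact (Clopper-Pearson, 95%). The members, lists and rules were chosen with earlier results of these data known. Genes were named if called, if among the 10 smallest p in exposed against control, the 3 smallest elsewhere or the 10 highest means, if in the eEF1A, eEF1B, eEF2, eIF4E, eIF4A, 4E-binding or eIF5A families, if all exposed pools lay on 1 side of the controls, or if under the filter. Others named (eif3ha, eif4g2a, eif4g2b, eif1axa and further eIF2, eIF3 and eIF4 members) were added to complete a role. Symbols were matched to RefSeq (51 of 51), and the primer sequences are those of the study. Alternatives were edgeR 4.0.16 and DESeq2 1.42.0 on recovered reads, other pseudocounts, filters and scalings, zeros restored, no trend, 1 fit over all groups, a replicate block, and each pool left out in turn. The analysis was tested on simulated data, with large changes planted only in the better-read genes. That test does not cover small changes or low genes. No pools were duplicates, since the lowest chi-square per degree of freedom over 171 pairs was 1.27.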

Additional observations from a re-analysis of the deposited data

Results flagged for a closer look

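Over 30 named genes, 120 groups of 4 pools were examined for a pool far from the other 3 (gap to the nearest pool over the whole range, above Dixon's 95% critical value), and 6 were found, as many as the 6 that chance gives at 5%. In eef1a1a, 0.5 mg/L pool b stood at 7.28 on 4 reads, against 16.3 to 17.3 in the other pools of its group. In eef1b2, 10 mg/L pool b was at 408 against 331 to 344. In eif4a3, 0.5 mg/L pool d was at 37.2 against 27.3 to 28.5. In eif4ea, 1 mg/L pool c was at 17.3 against 5.76 to 6.98, and 2 mg/L pool a was at 16.8 against 8.68 to 9.29. In eif5a2, 2 mg/L pool b was low, at 144 against 173 to 177. The 6 values came from 6 different pools.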

How the results depend on the processing

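No member was called in any comparison under any alternative, of which there were 21 for each concentration and 32 each for exposed against control and among exposures (148 in all). Of 1211 alternative values for 42 results on single genes, 1147 kept their direction and 64, in 16 results, reversed, and the cause was not tested. In exposed against control, the reversed values after rescaling to a common sum were -0.0044 for eef1a1l1, -0.041 for eef2a.1, -0.0043 for eef2b, -0.025 for eif2s2, -0.012 for eif2s3 and -0.039 for eif4a1b. After quantile normalization they were -0.049 for eef1a1l1, -0.053 for eef1g, -0.055 for eef2b, -0.0069 for eif2s2, 0.010 for eif4a1a and 0.033 for eif5a2. By edgeR they were -0.030 for eef2a.1, 0.037 for eif4a3, 0.015 for eif4ebp1 and 0.027 for eif5a2, and by DESeq2 0.0052 for eif4a1a, 0.048 for eif4a3, 0.023 for eif4ebp1 and 0.052 for eif5a2. A pseudocount of 0.1 gave -0.0016 for eef2a.1, and zeros restored gave -0.029 for eif2b2.

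Leaving out 1 pool at a time reversed 13 results, whose ranges were -0.18 to 0.36 for eef1a1l2, -0.17 to 0.28 for eef2a.1, -0.043 to 0.18 for eef2b, -0.24 to 0.059 for eif1b, -0.43 to 0.51 for eif2b2, -0.035 to 0.075 for eif2s2, -0.041 to 0.087 for eif2s3, -0.13 to 0.20 for eif4a1a, -0.091 to 0.077 for eif4a1b, -0.28 to 0.42 for eif4e2, -0.25 to 0.039 for eif4ebp1 and -0.12 to 0.076 for eif5a2 in exposed against control, and -0.024 to 0.69 for eif4e2 at 1 mg/L. Both ends of each range came from leaving out a control pool. The median over the members in exposed against control ran from -0.02 (rescaled) to 0.07 (DESeq2) over all alternatives. Within groups, the member median of a single pool varied with an SD of 0.13, which is not the error of a difference between group means. Members above 0 numbered 33 by edgeR (67.3%, against 46.1% of all genes) and 38 by DESeq2 (77.6%, against 48.2%). Without control pool a, 31 of all 6933 genes were called in exposed against control. With rising concentration, 46, 0, 8 and 3 were called in the comparisons of single exposures. None of these genes was a member.

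Letters were not taken to pair pools in the main fits. The deviations of same-letter pools had a median r of 0.0079, with 3 of 36 pairs over 0.1 (highest 0.18). Of 108 pairs of different letters, 1 was over 0.1 (highest 0.12). The labels do not say what the letters mark, and whether some same-letter pools share a batch was not tested. Pool d was the deepest and had the highest member and eef1a1l1 shares of reads in the 0.5, 1 and 2 mg/L groups, while in the 10 mg/L group it was the shallowest. With the letter as a replicate block, eef1a1l1 stood at -0.031 in exposed against control, as it did with the exposed pools of letter d left out, a setting chosen after seeing the data, since no control pool analysed carries that letter. The block gave calls for 29, 2, 3 and 1 of all genes with rising concentration (0, 0, 1 and 1 without it), and for 0 members. Precision was limited by 3 control pools and by depth, since 27 tested members had fewer than 1000 reads over 19 pools, and by the counting, which cannot assign reads shared between paralogs.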
